A study of Homo sapiens with 10 samples.

Results

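Integrins, cadherins and protocadherins are the receptors by which cells hold the extracellular matrix and each other. Their genes were picked out by symbol: the integrin alpha and beta subunits, the numbered cadherins, all protocadherins, and the FAT, CELSR and DCHS genes. The rule found 38 genes among the 13527 features of the deposited expression table. They comprise 14 integrin subunits (9 alpha and 5 beta), ITGBL1, 5 cadherins, 13 protocadherins and 5 of the very large cadherins FAT1, FAT4 and CELSR1 to CELSR3. ITGBL1 encodes a secreted integrin beta-like protein and was kept apart from the subunits. Genes of these families that have no row in the table were not analysed here.

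The cells were DU145, an established human prostate cancer line from a brain metastasis, grown in DMEM with serum. One set of cells carried a short hairpin RNA against the transcription factor SOX4 (shSOX4, labelled SOX4 knockdown, 3 libraries), and the control cells carried a scrambled hairpin (shCon, 3 libraries). RNA-seq gave total counts of 34784541, 31189910 and 34062819 in shSOX4 1, 2 and 3, and 43361609, 36360205 and 37012425 in shCon 1, 2 and 3. The labels do not state whether the 3 libraries of one group are separate cultures or use different hairpins, so a p-value here reflects library-to-library spread that may be technical.

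An integrin is a pair of one alpha and one beta chain that spans the membrane. The alpha chain sets much of the ligand choice, so integrins are grouped as receptors for laminin (basement membrane), for collagen, for the Arg-Gly-Asp (RGD) motif of fibronectin and vitronectin, and as leukocyte receptors. Inside the cell, talin and kindlin bind the beta chain and link it to actin at focal adhesions. Classical cadherins bind their like on the neighbouring cell and are held to actin by catenins. Clustered protocadherins come from 3 neighbouring gene arrays on chromosome 5, in which each first exon has its own promoter and the alpha and the gamma transcripts share last exons, and they are best known from neurons. FAT and CELSR proteins take part in planar cell polarity, the alignment of cells within a sheet.

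SOX4 itself measured 4.55, 6.44 and 6.01 CPM (counts scaled to library size) in shSOX4 1, 2 and 3, against 12.9, 10.1 and 8.48 CPM in shCon 1, 2 and 3. The groups did not overlap, and SOX4 fell by 0.89 on the log2 scale (adjusted p = 0.0111, edgeR quasi-likelihood test, with an SE of 0.236). That call was lost without shCon 1 (log2 fold change -0.71, adjusted p = 0.0598). On a principal component analysis of log2 CPM, the groups parted along the first component (66.3% of the variance), and shSOX4 1 and shCon 3 stood away from the other 4 libraries along the second (15.7%). Epithelial markers were present, with a summed level of 6813 to 7706 CPM in shSOX4 libraries and 2958 to 4388 CPM in shCon libraries over the 5 of 6 listed genes with a row. Most of this sum was KRT8 (means of 4603 CPM in shSOX4 and 1828 in shCon) and KRT18 (2274 and 1113), which rose. The other markers did not rise: CDH1 and EPCAM were called lower (log2 fold changes -1.28 and -0.83), and KRT19 was not called (-0.39). Of 5 leukocyte markers only CD14 had a row.

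Promoter stretches of 3 members are shown first, each holding the letters described below. ITGAV was called higher, while PCDHGB5 was called lower and PCDHGB2 just missed the call. Other called members with a promoter, among them PCDH1, FAT1, ITGA1, ITGA6 and ITGA2B, are not printed. The stretches are from RefSeq's GRCh38.p14 annotation, whereas the deposited values rest on hg19. Each runs from 250 bases before to 50 after an annotated start. In the first, capitals mark the letters ACAAAG or their reverse complement CTTTGT, a core that SOX proteins are known to bind. In the PCDHGB2 and PCDHGB5 stretches, capitals mark CGCTGTTGG, the longest exact run that both share around CGCT, the core of a conserved element in clustered protocadherin promoters.
ITGAV, chr2:186599955-186600254, plus strand: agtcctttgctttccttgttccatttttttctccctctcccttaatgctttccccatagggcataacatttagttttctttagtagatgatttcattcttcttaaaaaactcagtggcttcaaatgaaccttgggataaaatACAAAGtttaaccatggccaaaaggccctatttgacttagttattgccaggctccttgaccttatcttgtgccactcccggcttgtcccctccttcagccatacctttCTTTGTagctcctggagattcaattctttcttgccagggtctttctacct
PCDHGB2, chr5:141359886-141360185, plus strand: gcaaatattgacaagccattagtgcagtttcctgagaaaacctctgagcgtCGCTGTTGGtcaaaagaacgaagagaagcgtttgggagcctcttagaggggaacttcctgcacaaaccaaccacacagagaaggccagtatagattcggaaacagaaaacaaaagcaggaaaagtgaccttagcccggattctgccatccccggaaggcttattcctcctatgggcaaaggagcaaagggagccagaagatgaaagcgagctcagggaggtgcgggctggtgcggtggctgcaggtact
PCDHGB5, chr5:141397697-141397996, plus strand: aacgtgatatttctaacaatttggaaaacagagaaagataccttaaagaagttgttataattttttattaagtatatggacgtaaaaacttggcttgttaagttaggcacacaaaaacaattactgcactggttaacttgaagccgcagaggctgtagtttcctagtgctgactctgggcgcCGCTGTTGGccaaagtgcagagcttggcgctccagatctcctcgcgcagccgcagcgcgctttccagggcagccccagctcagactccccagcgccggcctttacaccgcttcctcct
Promoters were found for 24 of the 38 members, in 31 windows of 300 bases, and both strands were searched. ACAAAG or ACAATG, the 2 SOX cores searched, stood in 4 of the 31 member windows (12.9%), against 24.5% of all 35116 windows. The genes concerned were ITGAV, PCDHA4, PCDHA7 and PCDHB2. The window of the other annotated ITGAV start, which lies upstream at chr2:186589806-186590105, held neither. Its bases were 70.7% G or C, against 41.3% in the printed ITGAV window. CGCT stood in all 11 member windows of clustered protocadherins, in 28 of all 31 member windows (90.3%) and in 70% of all windows. The longer CGCTGTTGG was defined by its presence in the PCDHGB2 and PCDHGB5 windows, so its count among the members is no finding. Of the 52 windows of clustered protocadherins 4 hold it, and 3 of these are the PCDHGB2 window and a pair of overlapping PCDHGB5 windows with the same site; among all windows 0.222% hold it. A match describes letters in a window and is not a measured binding site.

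Of the 38 members, 13 were called changed at an adjusted p under 0.05, 5 of them higher and 8 lower in shSOX4 cells. This is 34.2%, beside 32.8% of all 13527 features, so the share of members that changed was near the background. In one direction, 17.0% of all features were called higher and 15.8% lower. The median log2 fold change of the members was -0.18, against -0.014 over all features. The values of the groups did not overlap for 17 members (44.7%), beside 47.0% of all features. In the authors' deposited table, where 37.0% of features pass, the same 13 members pass together with ITGB4 and PCDHGB2. Every feature of the deposited table had at least 1 CPM in at least 3 libraries. Of the members, 32 reached 1 CPM in all 6 libraries, and the other 6 were CDH5, CDH15, ITGA1, ITGBL1, PCDHAC1 and PCDHGB2. CDH5 had no shCon library at 1 CPM, and ITGA1 only 1, so these were listed through their shSOX4 values. Their calls as higher, and the counts that hold them, are not independent of that. PCDHGB2 reached 1 CPM in only 1 shSOX4 library and was listed through its shCon values.

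**Figure D1:**
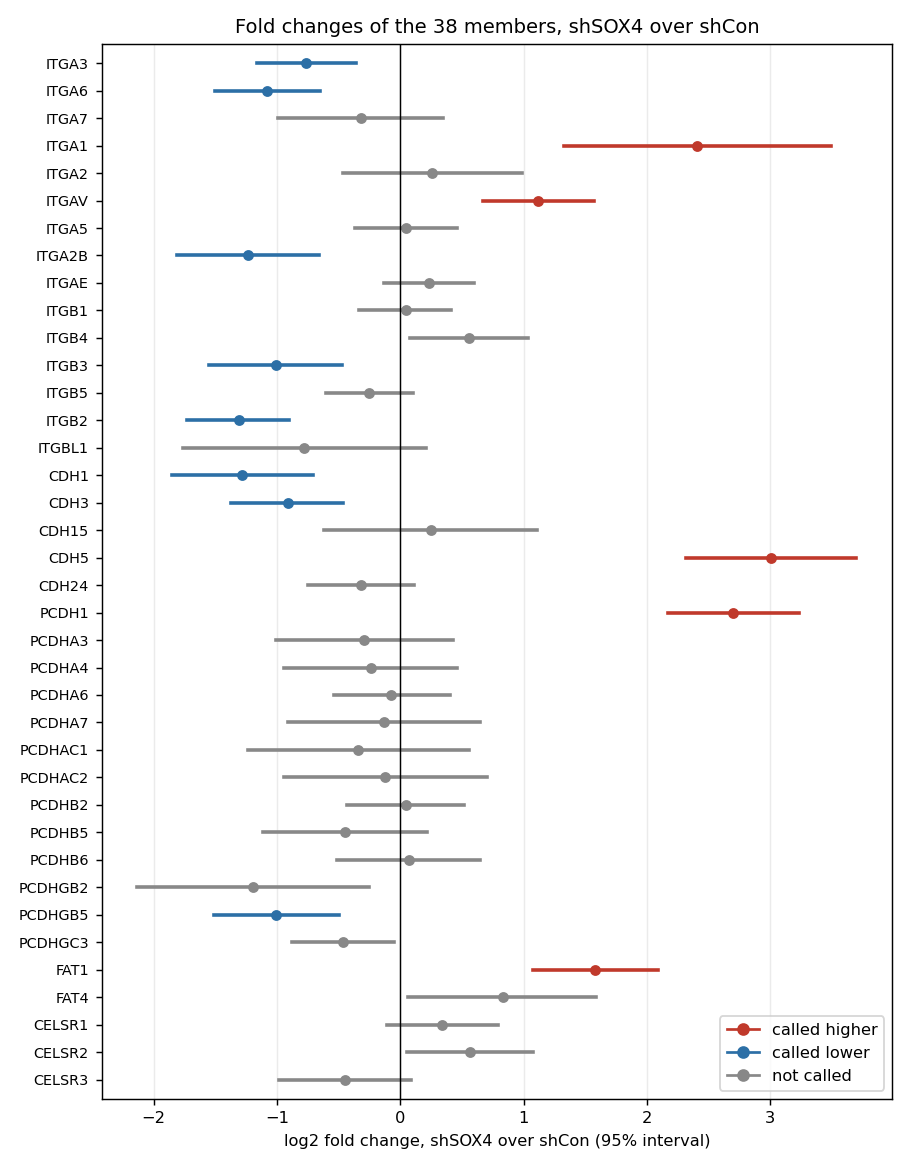
Log2 fold changes (shSOX4 over shCon, edgeR) of the 38 members with their 95% intervals, grouped by family; points right of 0 are higher in shSOX4 cells. The called members lie on both sides of 0, from -1.31 for ITGB2 to 3.01 for CDH5.

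Of the 14 integrin subunits, 2 were called higher (ITGA1 and ITGAV) and 5 lower (ITGA2B, ITGA3, ITGA6, ITGB2 and ITGB3), that is 50%, beside 32.8% of all features. The difference from the background was not tested. ITGA1 was listed through its shSOX4 values, so the count of rises is not independent of that. Their median log2 fold change was -0.10. The groups did not overlap for 8 of the 14 (57.1%), beside 47.0% of all features.

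Of the 3 laminin-binding alpha chains, ITGA3 and ITGA6 fell and ITGA7 was not called. ITGA3 (ENSG00000005884, chromosome 17), which pairs with ITGB1 to bind laminins of the basement membrane, was the most abundant integrin alpha transcript. It measured 696, 581 and 499 CPM in shSOX4 1, 2 and 3, against 909, 822 and 1278 CPM in shCon 1, 2 and 3. Every shSOX4 library lay below every shCon library, with means of 592 ± 98.7 and 1003 ± 242 CPM (SD, n = 3 each). ITGA3 fell by 0.76 (log2; SE 0.187, adjusted p = 0.00749, edgeR), and the length-scaled level averaged 114 FPKM (fragment counts scaled to gene length and library size) in shSOX4 and 191 FPKM in shCon cells. ITGA6 (ENSG00000091409, chromosome 2) pairs with ITGB1, or with ITGB4 in the hemidesmosomes that anchor basal epithelial cells. It measured 10.4, 12.3 and 11 CPM in shSOX4 1, 2 and 3, and 28.1, 23.2 and 20.0 CPM in shCon 1, 2 and 3. The groups stood clear of each other, and ITGA6 fell by 1.08 (log2; SE 0.198, 95% interval -1.5 to -0.65, adjusted p = 0.00123, edgeR). The third member, the muscle-type laminin receptor ITGA7, had 1.82 to 3.28 CPM in shSOX4 and 2.76 to 4.29 CPM in shCon libraries. These ranges overlapped (log2 fold change -0.32, 95% interval -0.99 to 0.35, adjusted p = 0.457, edgeR).

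Both collagen-binding alpha chains were scarce. ITGA1 (ENSG00000213949, chromosome 5), a receptor with ITGB1 for basement membrane collagen, measured 2.99, 3.44 and 2.77 CPM in shSOX4 1, 2 and 3, and 0.504, 0.134 and 1.11 CPM in shCon 1, 2 and 3. All shSOX4 libraries were above all shCon libraries. ITGA1 rose by 2.41 (log2; SE 0.505, adjusted p = 0.00297, edgeR), and without shCon 3 the log2 fold change was 3.21 (adjusted p = 0.000296). PELO, which lies within ITGA1, had a log2 fold change of -0.032 (adjusted p = 0.899). Of 7 listed fibroblast markers, 3 had rows (COL1A1, PDGFRB and LUM) and all 3 rose. Their summed level was 9.55 to 16 CPM in shSOX4 and 1.68 to 2.48 CPM in shCon libraries. LUM had no shCon library at 1 CPM and PDGFRB only 1. Both were thus listed through their shSOX4 values, and their rise is not independent of that. The part of the fibroblast markers in the result was not tested. In these bulk samples fewer cells of a type and less RNA per cell cannot be told apart. ITGA2, the other collagen-binding chain, overlapped between the groups, with 2.67 to 4.92 CPM in shSOX4 and 1.95 to 4.08 CPM in shCon libraries (log2 fold change 0.26, adjusted p = 0.578, edgeR).

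Among the RGD-binding alpha chains one rose, one fell and one was not called. ITGAV (ENSG00000138448, chromosome 2) pairs with several beta chains to bind vitronectin, fibronectin and latent TGF-beta. It measured 17.4, 18.5 and 13.7 CPM in shSOX4 1, 2 and 3, against 8.45, 7.69 and 6.68 CPM in shCon 1, 2 and 3. The lowest shSOX4 library was above the highest shCon library, and ITGAV rose by 1.12 (log2; SE 0.209, 95% interval 0.67 to 1.57, adjusted p = 0.00134, edgeR). ITGA2B (ENSG00000005961, chromosome 17), known as the platelet fibrinogen receptor chain, measured 4.75, 2.94 and 2.65 CPM in shSOX4 1, 2 and 3, and 7.40, 7.28 and 9.65 CPM in shCon 1, 2 and 3. These values did not overlap either, and ITGA2B fell by 1.23 (log2; SE 0.27, adjusted p = 0.00381, edgeR). ITGA5, the fibronectin receptor chain and the second most abundant alpha transcript, measured 148, 115 and 98.2 CPM in shSOX4 1, 2 and 3, and 111, 96.4 and 142 CPM in shCon 1, 2 and 3. The groups interleaved, with a log2 fold change of 0.046 (95% interval -0.37 to 0.46, adjusted p = 0.874, edgeR). ITGAE pairs with ITGB7 on lymphocytes to bind E-cadherin and was grouped as leukocyte. It measured 48.4, 43.1 and 46.9 CPM in shSOX4 1, 2 and 3, and 37.1, 43.5 and 37.2 CPM in shCon 1, 2 and 3. ITGAE overlapped between the groups (log2 fold change 0.23, 95% interval -0.13 to 0.60, adjusted p = 0.309, edgeR), and it shares its locus with HASPIN, whose log2 fold change was -0.50 (adjusted p = 0.0557).

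**Figure D2:**
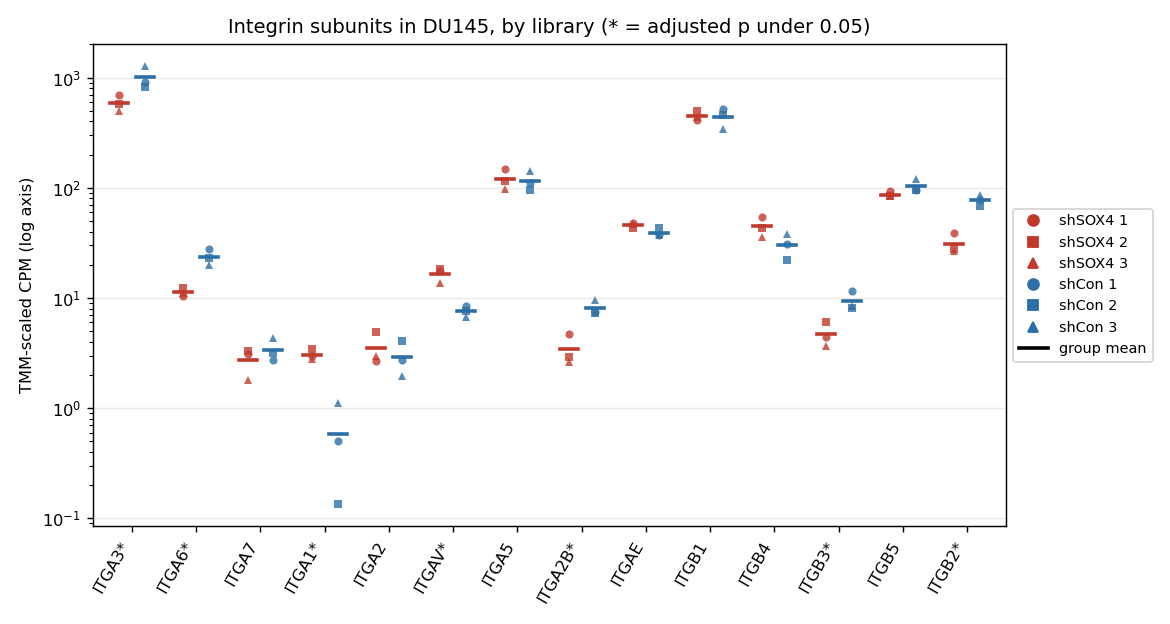
CPM of each integrin subunit in the 3 shSOX4 and the 3 shCon libraries (points; log axis) with group means as short lines; an asterisk marks called subunits. ITGA3, ITGA6, ITGA2B, ITGB2 and ITGB3 sit lower and ITGAV and ITGA1 sit higher in shSOX4 cells.

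Of the 5 beta chains, ITGB2 and ITGB3 fell and none was called higher by edgeR with all 6 libraries, while DESeq2 and the authors' deposited table call ITGB4 higher (1 beta chain was higher at an unadjusted p under 0.05). ITGB1, the partner of most alpha chains and the most abundant beta transcript, measured 416, 501 and 438 CPM in shSOX4 1, 2 and 3, and 516, 457 and 342 CPM in shCon 1, 2 and 3. The shSOX4 values lay inside the shCon range, and the log2 fold change was 0.044 (95% interval -0.33 to 0.41, adjusted p = 0.865, edgeR). ITGB2 (ENSG00000160255, chromosome 21), the leukocyte beta chain, measured 38.7, 27.9 and 26.5 CPM in shSOX4 1, 2 and 3, and 76.9, 68.9 and 85.7 CPM in shCon 1, 2 and 3. It fell by 1.31 (log2; SE 0.194, 95% interval -1.73 to -0.90, adjusted p = 0.000235, edgeR) without overlap. Its locus overlaps the antisense gene ITGB2-AS1, and since the strand setting of the counting is not stated, reads of the pair cannot be told apart. ITGA6 and CDH3 likewise overlap ITGA6-AS1 and CDH3-AS1, so the same limit applies to them. Of the leukocyte alpha chains that ITGB2 pairs with, none is among the 38 members.

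ITGB3 (ENSG00000259207, chromosome 17), a partner of ITGAV and ITGA2B, measured 4.40, 6 and 3.66 CPM in shSOX4 1, 2 and 3, against 11.6, 8.14 and 8.51 CPM in shCon 1, 2 and 3. The groups did not overlap and ITGB3 fell by 1.01 (log2; SE 0.251, adjusted p = 0.008, edgeR), but limma on log2(FPKM + 1) gave -0.57 with an adjusted p of 0.0512. ITGB5, another vitronectin receptor chain with ITGAV, measured 92.6, 83.6 and 84.2 CPM in shSOX4 1, 2 and 3, and 95.5, 96.0 and 119 CPM in shCon 1, 2 and 3. All shSOX4 values were lower, but ITGB5 was not called (log2 fold change -0.25, 95% interval -0.60 to 0.10, adjusted p = 0.246, edgeR). ITGB4, the hemidesmosomal partner of ITGA6, measured 54.7, 43.5 and 36.0 CPM in shSOX4 1, 2 and 3, and 30.8, 22.1 and 38.1 CPM in shCon 1, 2 and 3. Only shCon 3 reached into the shSOX4 range. The log2 fold change of 0.56 missed the call (adjusted p = 0.0672, edgeR) and passed with DESeq2 (adjusted p = 0.0438) and without shCon 3 (0.76, adjusted p = 0.0154). ITGB4 shares its locus with GALK1, whose log2 fold change was -0.5 (adjusted p = 0.0702, edgeR). ITGBL1 had 0.619 to 1.07 CPM in shSOX4 and 0.583 to 2.12 CPM in shCon libraries, which overlapped (log2 fold change -0.78, adjusted p = 0.208, edgeR).

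The makeup of the integrin pool was compared through FPKM, which allows for gene length. The deposited FPKM does not rest on 1 fixed length per gene. After scaling, counts per FPKM differed between libraries by up to 1.32-fold for ITGB3, 1.31 for ITGA7 and 1.3 for CDH1. For ITGA3 and ITGB1 the spread was 1.01. The shares and ratios of FPKM carry these differences. Laminin-binding chains held 74.4, 74.7 and 73.7% of the summed alpha FPKM in shSOX4 1, 2 and 3, and 83.3, 82.6 and 85.4% in shCon 1, 2 and 3. RGD-binding chains held 18.9, 17.9 and 17.4% in shSOX4 1, 2 and 3, against 12.3, 11.9 and 11.5% in shCon 1, 2 and 3. Neither pair of groups overlapped: the laminin share was lower by 9.46 percentage points on average and the RGD share higher by 6.17. Both had an exact two-sided permutation p of 0.1, the smallest that 3 against 3 libraries allow. The collagen-binding share was 0.313 to 0.573% in shSOX4 and 0.11 to 0.25% in shCon libraries, and the ITGAE share was 6.37 to 8.48% in shSOX4 and 3.06 to 5.34% in shCon libraries (exact permutation p = 0.1 for each). These shares are parts of one sum, so a fall of ITGA3, its largest part, raises the others. The summed alpha level itself was 181, 161 and 131 FPKM in shSOX4 1, 2 and 3, and 224, 202 and 273 FPKM in shCon 1, 2 and 3.

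In the beta pool, ITGB2 held 9.28, 6.15 and 6.46% in shSOX4 1, 2 and 3, and 14, 14 and 19.2% in shCon 1, 2 and 3, without overlap (exact permutation p = 0.1). ITGB1 held 70.8 to 77.4% in shSOX4 and 58.1 to 70.9% in shCon libraries, which overlapped (exact permutation p = 0.2). The RGD-binding beta chains ITGB3 and ITGB5 held 13 ± 0.96% in shSOX4 and 14.8 ± 3.26% in shCon cells (SD, n = 3 each; exact permutation p = 0.6), a difference of -1.86 points whose sign is opposite to that of the RGD-binding alpha chains. ITGB4, the laminin-binding beta chain, held 4.78 ± 1.04% in shSOX4 and 2.98 ± 1.02% in shCon cells (SD, n = 3 each; exact permutation p = 0.2), a difference of 1.79 points and opposite in sign to the laminin-binding alpha chains. Both beta shares overlapped between the groups. Ratios between partner chains were set side by side in each library. The FPKM ratio of ITGB4 to ITGA6 was 5.14, 3.57 and 3.25 in shSOX4 1, 2 and 3, and 1.07, 0.938 and 1.88 in shCon 1, 2 and 3. The ratio of ITGB3 to ITGAV was 0.471, 0.794 and 0.534 in shSOX4 1, 2 and 3, and 2.65, 2.16 and 2.51 in shCon 1, 2 and 3. The ratio of ITGB5 to ITGAV was 8.77, 7.47 and 10 in shSOX4 1, 2 and 3, and 18.5, 20.6 and 29.7 in shCon 1, 2 and 3. The 3 ratios did not overlap between the groups (exact permutation p = 0.1 each). ITGA3 over ITGA6, the laminin chains that both fell, had ratios of 60.9 ± 13 in shSOX4 and 50.2 ± 20.2 in shCon cells (SD, n = 3 each; exact permutation p = 0.5). In all, 7 ratios and 13 shares were tested, and with a smallest p of 0.1 none could pass after adjustment.

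**Figure D3:**
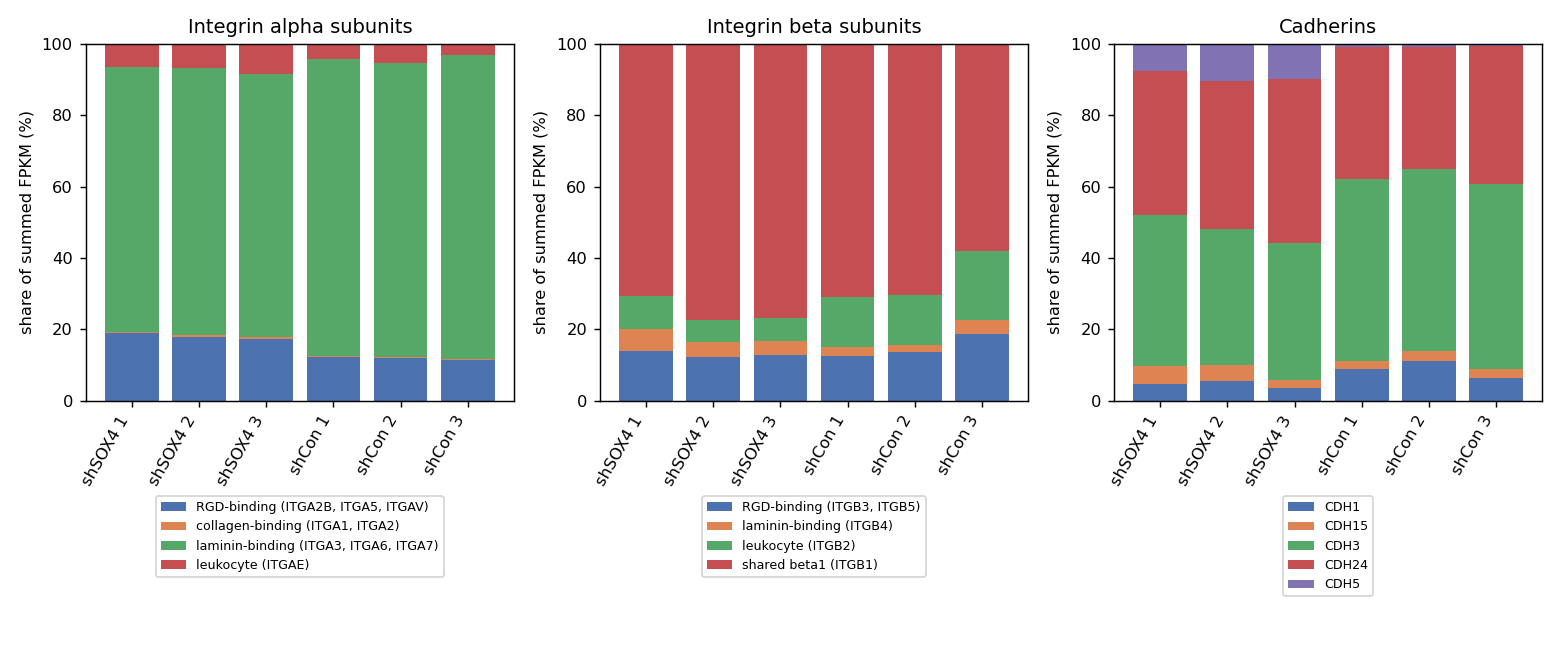
Percent of summed FPKM held by each ligand class of integrin alpha chains, integrin beta chains and cadherins, as stacked bars for each of the 3 shSOX4 and 3 shCon libraries. The laminin-binding part of the alpha bar is 73.7 to 74.7% in shSOX4 and 82.6 to 85.4% in shCon libraries.

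Of the 23 members of the cadherin superfamily, 3 were called higher (CDH5, FAT1 and PCDH1) and 3 lower (CDH1, CDH3 and PCDHGB5). That is 26.1%, beside 32.8% of all features. CDH5 was listed through its shSOX4 values, so the count of rises is not independent of that. The groups did not overlap for 9 of the 23 (39.1%), beside 47.0% of all features. The median log2 fold change was -0.13.

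Both epithelial cadherins fell. CDH1 (ENSG00000039068, chromosome 16; E-cadherin), the adherens junction receptor of epithelia, was low, at 4.49, 4.74 and 2.41 CPM in shSOX4 1, 2 and 3, and 10.6, 8.95 and 8.66 CPM in shCon 1, 2 and 3. Its groups did not overlap, and CDH1 fell by 1.28 (log2; SE 0.268, 95% interval -1.85 to -0.71, adjusted p = 0.0029, edgeR), leaving 41.2% of the shCon mean. CDH3 (ENSG00000062038, chromosome 16; P-cadherin), typical of basal epithelial cells, had the highest FPKM of the 5 cadherins. It measured 36.6, 31.6 and 21.9 CPM in shSOX4 1, 2 and 3, against 54.8, 48.9 and 66.1 CPM in shCon 1, 2 and 3. It fell by 0.91 (log2; SE 0.212, adjusted p = 0.00541, edgeR) without overlap. Among the epithelial markers that moved beside them, EPCAM fell as well (log2 fold change -0.83, adjusted p = 0.0279, edgeR), but its groups overlapped. KRT8 rose by 1.33 and KRT18 by 1.03.

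CDH5 (ENSG00000179776, chromosome 16; VE-cadherin), known from the junctions of blood vessel endothelium, went the other way. It measured 6.31, 6.62 and 4.70 CPM in shSOX4 1, 2 and 3, and 0.942, 0.699 and 0.525 CPM in shCon 1, 2 and 3. Each shSOX4 library was several times above each shCon library, and CDH5 rose by 3.01 (log2; SE 0.322, 95% interval 2.32 to 3.70, adjusted p = 1.23e-05, edgeR). Of 5 endothelial markers only CDH5 had a row, and the other 4 were not analysed here; whether such cells contribute was not tested. CDH24, a type II cadherin, measured 27.9, 25.3 and 21.7 CPM in shSOX4 1, 2 and 3, and 31.1, 24.8 and 37.7 CPM in shCon 1, 2 and 3. These overlapped (log2 fold change -0.32, 95% interval -0.75 to 0.11, adjusted p = 0.23, edgeR). CDH15, the muscle cadherin, had 0.893 to 2.99 CPM in shSOX4 and 1.56 to 2.07 CPM in shCon libraries (log2 fold change 0.25, adjusted p = 0.666, edgeR).

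In the FPKM summed over the 5 cadherins, CDH3 held 42.2, 38 and 38.4% in shSOX4 1, 2 and 3, and 51.1, 51.2 and 52% in shCon 1, 2 and 3. CDH1 held 3.57 to 5.49% in shSOX4 and 6.27 to 11.2% in shCon libraries. CDH5 held 7.62 to 10.2% in shSOX4 and 0.434 to 0.929% in shCon libraries, and CDH24 40.3 to 46.1% in shSOX4 and 34.1 to 38.7% in shCon libraries. In each of these 4 the groups did not overlap (exact permutation p = 0.1). CDH24, which was not itself called, thus had a larger share than CDH3 in 2 of the 3 shSOX4 libraries and a smaller one in every shCon library.

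**Figure D4:**
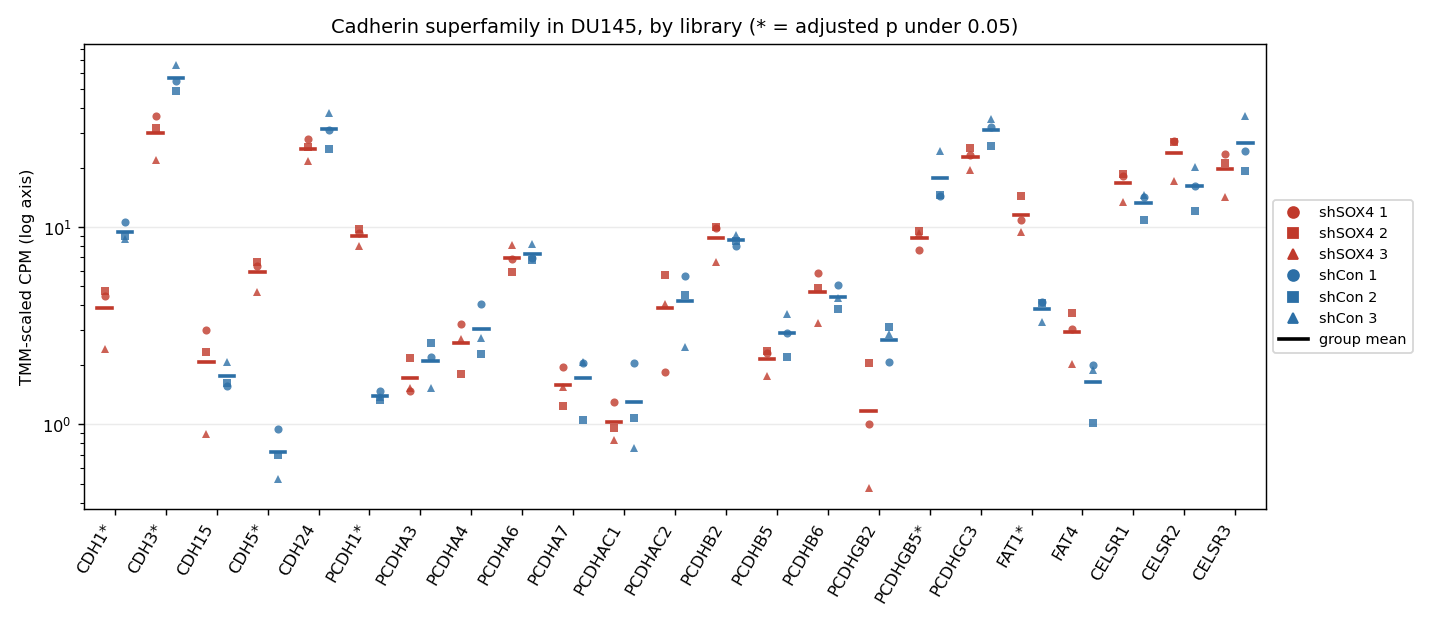
CPM of the cadherins, protocadherins, FAT and CELSR genes in the 3 shSOX4 and the 3 shCon libraries (points; log axis) with group means as short lines; an asterisk marks called genes. CDH5, PCDH1 and FAT1 sit higher and CDH1, CDH3 and PCDHGB5 lower in shSOX4 cells.

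PCDH1 (ENSG00000156453, chromosome 5), a protocadherin outside the clusters that is expressed in airway epithelium and endothelium, measured 9.30, 9.81 and 7.98 CPM in shSOX4 1, 2 and 3, and 1.47, 1.32 and 1.37 CPM in shCon 1, 2 and 3. The spread within each group was small beside the gap, with means of 9.03 ± 0.946 and 1.38 ± 0.0765 CPM (SD, n = 3 each). PCDH1 rose by 2.70 (log2; SE 0.248, 95% interval 2.17 to 3.23) and had the smallest adjusted p of the 38 members (2.75e-06, edgeR).

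Of the 12 clustered protocadherins 1 was called lower and none higher by edgeR, with a median log2 fold change of -0.27. That is 8.33% called, beside 32.8% of all features. At an unadjusted p under 0.05, or with DESeq2, 0 were higher. The groups did not overlap for 3 of the 12 (25%), beside 47.0% of all features. The 6 alpha genes (PCDHA3, PCDHA4, PCDHA6, PCDHA7, PCDHAC1 and PCDHAC2) and the 3 beta genes (PCDHB2, PCDHB5 and PCDHB6) had no call by edgeR, DESeq2 or limma-voom, 0 at an unadjusted p under 0.05, and no gene whose groups stood apart. Their log2 fold changes ran from -0.45 to 0.074. PCDHB2, the highest of them by FPKM, measured 9.83, 9.94 and 6.67 CPM in shSOX4 1, 2 and 3, and 8.02, 8.52 and 9.10 CPM in shCon 1, 2 and 3 (log2 fold change 0.045, 95% interval -0.43 to 0.52, adjusted p = 0.893, edgeR). PCDHA6 had 5.91 to 8.10 CPM in shSOX4 and 6.80 to 8.22 CPM in shCon libraries, which also overlapped.

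All 3 gamma genes had lower values in every shSOX4 library than in every shCon library. Of all features, 47.0% had groups that did not overlap. PCDHGB5 (ENSG00000276547, chromosome 5) measured 7.63, 9.53 and 9.29 CPM in shSOX4 1, 2 and 3, and 14.4, 14.5 and 24.2 CPM in shCon 1, 2 and 3. It fell by 1.01 (log2; SE 0.237, adjusted p = 0.00587, edgeR), and by 0.62 without shCon 3 and shSOX4 1 together (adjusted p = 0.0139). PCDHGB2, whose promoter shares CGCTGTTGG with that of PCDHGB5, measured 0.997, 2.04 and 0.476 CPM in shSOX4 1, 2 and 3, and 2.06, 3.12 and 2.86 CPM in shCon 1, 2 and 3. The margin between the groups was narrow, and the log2 fold change of -1.19 missed the call (95% interval -2.13 to -0.25, adjusted p = 0.0503, edgeR). With only 1 shSOX4 library at 1 CPM, PCDHGB2 was listed through its shCon values. Its fall and its place among the 3 lower gamma genes are not independent of that. PCDHGB2 was called in 8 of 17 alternatives, among them DESeq2 (adjusted p = 0.0287), limma-voom (0.0243) and leaving out shSOX4 2, which gave -1.85 (0.0112); its leave-one-out values ran from -1.85 to -0.81. PCDHGC3, the highest of the gamma genes, measured 23.1, 25.2 and 19.4 CPM in shSOX4 1, 2 and 3, and 32.1, 25.8 and 35.4 CPM in shCon 1, 2 and 3. Its log2 fold change was -0.46 (95% interval -0.88 to -0.049, adjusted p = 0.0792, edgeR). The gamma genes share their last exons and overlap on chromosome 5, as the alpha genes do, so how reads were divided among them is uncertain and the 3 are not separate observations.

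Of the large cadherins, FAT1 was called. FAT1 (ENSG00000083857, chromosome 4), an atypical cadherin that regulates actin and Hippo signalling, measured 10.9, 14.3 and 9.41 CPM in shSOX4 1, 2 and 3, against 4.14, 4.11 and 3.29 CPM in shCon 1, 2 and 3. Every shSOX4 library was above the shCon libraries, and FAT1 rose by 1.58 (log2; SE 0.236, 95% interval 1.08 to 2.09, adjusted p = 0.000252, edgeR). FAT4, a receptor for DCHS1, measured 3.05, 3.68 and 2.02 CPM in shSOX4 1, 2 and 3, and 1.99, 1.02 and 1.89 CPM in shCon 1, 2 and 3, so the groups only just stood apart (log2 fold change 0.83, adjusted p = 0.0869, edgeR).

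The CELSR genes encode seven-pass cadherins of planar polarity and none was called by edgeR; at an unadjusted p under 0.05, 1 was higher and 0 lower, and DESeq2 called 0. CELSR1 measured 18.1, 18.6 and 13.3 CPM in shSOX4 1, 2 and 3, and 14.2, 10.8 and 14.6 CPM in shCon 1, 2 and 3 (log2 fold change 0.34, 95% interval -0.11 to 0.79, adjusted p = 0.227, edgeR). CELSR2 measured 27.3, 27.1 and 17.0 CPM in shSOX4 1, 2 and 3, and 16.1, 12.0 and 20.2 CPM in shCon 1, 2 and 3. Its log2 fold change of 0.57 missed the call (adjusted p = 0.0815, edgeR) but passed without shSOX4 3 (adjusted p = 0.039) and without shCon 3 (adjusted p = 0.025). CELSR3 measured 23.4, 21.1 and 14.2 CPM in shSOX4 1, 2 and 3, and 24.3, 19.2 and 36.3 CPM in shCon 1, 2 and 3 (log2 fold change -0.45, 95% interval -0.98 to 0.091, adjusted p = 0.185, edgeR). All 3 overlapped between the groups.

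The ligands of these receptors were measured in the same libraries, in which 32.8% of all features were called, 17.0% higher and 15.8% lower. Of 16 RGD ligands with a row, 9 rose and 4 fell (81.2% called, median log2 fold change 0.73). L1CAM, a neural adhesion molecule that binds RGD integrins, averaged 92.1 ± 10.3 CPM in shSOX4 and 5.29 ± 0.907 CPM in shCon cells (SD, n = 3 each). The vitronectin gene VTN rose by 3.39, the fibrillin FBN2 by 4.53 and fibronectin, FN1, by 0.81 (log2). Of 16 collagen genes with a row, 10 rose and 3 fell (81.2%, median 1.31). The largest was COL5A1 with a log2 fold change of 5.07, and COL4A5, a basement membrane chain, rose by 3.72. Of the fibroblast markers with a row, LUM rose by 5.02, PDGFRB by 2.61 and COL1A1, itself one of the 10, by 2.12. LUM had 0 and PDGFRB 1 shCon libraries at 1 CPM, so both were listed through their shSOX4 values. The part of the fibroblast markers in the result was not tested. Of 10 laminin chains, 3 rose and 2 fell (50%, median 0.26), with LAMA4 up by 3.86 and LAMB1 by 1.5. LAMA4 had no shCon library at 1 CPM, so it was listed through its shSOX4 values and its count among the rises is not independent of that. NPNT, FBN1, TGFB3 and COL4A6 reached 1 CPM in only 2 shCon libraries and COL9A3 in 1, so their rises carry the same limit. The counts of rises and the medians of these lists are thus partly set by the floor of 1 CPM in 3 libraries. COL11A2, which was not called, reached 1 CPM in 2 shSOX4 and all shCon libraries. LAMA3, a chain of laminin-332, the ligand of the integrins made with ITGA3 and ITGA6, fell by 1.18 (adjusted p = 0.00141, edgeR). Of 5 immunoglobulin ligands of leukocyte integrins none rose by edgeR (0 also at an unadjusted p under 0.05 and with DESeq2) and 2 fell (40%, median -0.54): ICAM1, the ligand of ITGB2 integrins, by 0.58 and F11R by 0.69. Counts of falls depended on single libraries. RGD ligands lower were 1 without shSOX4 2 and 2 without shSOX4 3 or shCon 1, and immunoglobulin ligands lower were 1 without shSOX4 2, shSOX4 3 or shCon 1. Without shCon 3 and shSOX4 1 together, 5 laminin chains were higher and 4 immunoglobulin ligands lower.

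Inside the cell, the talin, kindlin and focal adhesion genes moved in both directions, with 7 of 37 higher and 7 lower (37.8% called, near the 32.8% of all features; median 0.21). TNS1, a tensin that binds integrin beta tails, rose by 2.98, the integrin-linked kinase partner PARVA by 1.73 and the scaffold NEDD9 by 2.71. NEDD9 reached 1 CPM in only 2 shCon libraries, so it was listed through its shSOX4 values. The count of falls was 2 without shSOX4 2 or shSOX4 3, 4 without shCon 1 and 3 without shCon 3, and the count of rises was 11 without shCon 3 and shSOX4 1 together. Of 19 integrin-associated membrane and uptake genes, 3 rose and 1 fell (21.1% called, below the same 32.8%; median -0.21). DAB2, an endocytic adaptor for integrins, rose by 2.76, VPS26A of retromer by 0.76, and PLAUR, the urokinase receptor, fell by 0.61. The fallen genes of that list numbered 3 without shSOX4 1 or without it and shCon 3 together, 0 without shSOX4 2 and 2 without shCon 1.

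Of 16 catenins and adherens junction partners, 2 rose and 3 fell (31.2% called, near the 32.8% of all features; median 0.076). The core catenins CTNNB1 (log2 fold change 0.16, adjusted p = 0.63, edgeR) and CTNNA1 (0.0024, adjusted p = 0.993) were not called. JUP (plakoglobin) and LIMA1, an actin linker at junctions, rose by 1.19 and 1.42, and the beta-catenin inhibitor CTNNBIP1 fell by 0.83. Without shSOX4 2 the falls of this list numbered 1. Of 16 planar polarity and FAT-DCHS partners, 1 rose and 6 fell (43.8% called, beside 17.0% of all features higher and 15.8% lower; median -0.27). VANGL2, the core polarity protein that acts with CELSR proteins, averaged 1.73 ± 0.485 CPM in shSOX4 and 6.57 ± 0.247 CPM in shCon cells (SD, n = 3 each; log2 fold change -1.92, adjusted p = 0.00019, edgeR). DVL2 fell by 0.85 and LIX1L, which acts with FAT4, by 0.76. The rises of that list numbered 2 without shSOX4 1 or without it and shCon 3 together, and 0 without shSOX4 2. Of 14 genes for promoter choice and chromatin at the clustered protocadherins, 7 rose and none fell by edgeR (0 also at an unadjusted p under 0.05 and with DESeq2; 50% called, beside 32.8% of all features; median 0.59). STAG2 and STAG1, the alternative cohesin subunits, rose by 1.60 and 1.18, and the cohesin loader NIPBL by 1.17, while CTCF was not called (log2 fold change -0.016, adjusted p = 0.957, edgeR).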

How the data were processed

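RNA-seq of 3 shSOX4 and 3 shCon libraries of DU145 cells was analysed; the 4 ATAC-seq libraries were not analysed here. The deposited table holds whole-number counts per gene, FPKM, in which the authors divided by gene length and by library depth, and the authors' log2 fold change with its p-value adjusted by false discovery rate, per the file headers. Columns named SH and NC were read as shSOX4 and shCon. Per the submitters' processing notes the build was hg19 and the tools, given without roles, were Bowtie2, deepTools 2.07, HISAT2, MACS2 2.1.1 and STAR. Counting tool, strand setting and filter: not given in the sources used here. In the labels, 2 library kits are described without being assigned.

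Counts of all 13527 features, of which 1116 are loci named newGene, were fitted with edgeR 4.0.16 in R 4.3.3 (TMM, filterByExpr, which removed none, quasi-likelihood F test, group only, two-sided, Benjamini-Hochberg over all features, called under 0.05). Levels are TMM-scaled CPM. Shares and ratios of FPKM were tested by exact permutation over libraries. In a test on simulated data with 13527 features, 71% of 100 doublings and 56% of 100 halvings were called, with 18 false calls. Libraries within a group differed by more than counting noise (chi-square over degrees of freedom 28.7 to 139), so none is a copy of another. Separate preparations of one culture could differ as much, so this does not settle whether the libraries are separate cultures.

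The members and the 11 gene lists were chosen with earlier results of these data known. Full values were given for called members whose log2 fold change was 1 or more in size, and for the 3 with the highest FPKM in each family; outside the members, SOX4 and up to 3 genes of each list with the smallest adjusted p were named. ITGA7, ITGA2, CDH15, FAT4, PCDHGB2, PCDHA6, ITGBL1 and ITGB4 are shown beyond that rule to complete their classes, and FN1, CTNNB1, CTNNA1 and CTCF were named after their values were seen. NPNT, FBN1, TGFB3, COL4A6, COL9A3 and COL11A2 were named because they missed 1 CPM in some libraries. Cell type markers come from their own lists, and PELO, HASPIN and GALK1 were named because they overlap a member. Deviations of same-numbered libraries from their group means had correlations of -0.29, 0.16 and -0.29. The highest correlation was 0.49, of shSOX4 1 with shCon 3. With 3 libraries a group these values cannot settle whether replicate numbers pair the libraries, and no pairing is stated.

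Alternatives were RLE and total-count scaling, other filters, DESeq2 1.42.0, limma 3.58.1 (voom, and log2(FPKM + 1)), a replicate block, a test against a 1.5-fold change, leaving out newGene loci, each library, or shCon 3 with shSOX4 1. Protein sequences were not used here.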

Additional observations from a re-analysis of the deposited data

How the results depend on the processing

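The 13 called members were refitted under 17 alternatives each. Of these 221 fits, 216 kept the call and none reversed. The call was lost against a 1.5-fold change for CDH3 (adjusted p = 0.151), ITGA3 (0.314), ITGB3 (0.124) and PCDHGB5 (0.11), and for ITGB3 by limma on log2(FPKM + 1) (0.0512); these tests ask for more than a change or use another scale. Against a 1.5-fold change, 3 integrin subunits and 1 cadherin superfamily member were called lower, and 782 features were called higher and 413 lower. Leaving out 1 library gave 2 to 3 integrin subunits higher and 5 lower, 3 to 4 cadherin superfamily members higher and 3 to 4 lower, and 1411 to 2653 features higher and 1098 to 2313 lower. All class shares kept the sign of their difference under the 7 alternatives run for them, but sizes moved when 1 library was left out. The RGD-binding beta share ran from -3.06 to -0.00309 points (the smaller without shCon 3) around -1.86, the ITGB1 share from 4.36 (without shCon 3) to 10.7 around 8.52, and the CDH15 share from 0.917 to 2.42 around 1.52. No pairing of the libraries by replicate number is stated. With the replicate numbers as a block, 2 integrin subunits were called higher and 5 lower. In that fit 3 cadherin superfamily members were higher and 4 lower, as were 1825 features higher and 1549 lower.

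Near-zero log2 fold changes crossed 0 when 1 library was left out: CDH15 (-0.11 to 0.62), ITGA2 (-0.06 to 0.58), ITGA5 (-0.12 to 0.22), ITGB1 (-0.10 to 0.18), PCDHA4 (-0.42 to 0.038), PCDHA6 (-0.18 to 0.033), PCDHA7 (-0.38 to 0.024), PCDHAC1 (-0.60 to 0.16), PCDHAC2 (-0.51 to 0.22), PCDHB2 (-0.05 to 0.22) and PCDHB6 (-0.11 to 0.28). Without shCon 3 and shSOX4 1 together, ITGB1 was at -0.047, PCDHA6 at 0.033 and PCDHB6 at -0.13. None of these genes was called in the fit to all 6 libraries. The cause was not tested. The 95% interval of ITGA1, at 0.134 to 3.44 CPM, ran from 1.33 to 3.49, and that of ITGAV, at 6.68 to 18.5 CPM, from 0.67 to 1.57; how much of this is depth was not tested.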

Other observations

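Genes known to act on E-cadherin were listed apart. Of 6 transcriptional repressors of CDH1 with a row, 1 rose and 2 fell (50% called, beside 32.8% of all features; median log2 fold change -0.19). ZEB2, a zinc finger repressor, measured 1.99, 3.65 and 2.23 CPM in shSOX4 1, 2 and 3, and 0.394, 0 and 0.0583 CPM in shCon 1, 2 and 3 (adjusted p = 0.000737, edgeR). With no shCon library at 1 CPM, ZEB2 was listed through its shSOX4 values, so its call as higher is not independent of that. TCF3 fell by 0.55 and SNAI3 by 1.22. SNAI3 reached 1 CPM in only 2 shSOX4 libraries, so it was listed through its shCon values. The falls numbered 0 without shSOX4 2 or shSOX4 3, and 1 without shCon 3 or without it and shSOX4 1 together. Of 9 genes for shedding and cleavage of cadherins, which include non-catalytic gamma-secretase subunits, none rose and 2 fell at an adjusted p under 0.05 by edgeR (median -0.064). That is 22.2% called, below the 32.8% of all features (17.0% higher and 15.8% lower). At an unadjusted p under 0.05, and with DESeq2, 1 was higher. MMP14, a membrane metalloprotease, fell by 0.98 (adjusted p = 0.0027) and ADAM15 by 0.51, while ADAM10, which cleaves E-cadherin, had a log2 fold change of 0.48 (adjusted p = 0.0606). The falls numbered 1 without shSOX4 2, shSOX4 3 or shCon 3, and 1 gene rose without shCon 3 and shSOX4 1 together.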
